A study of Danio rerio with 25 samples.

Results

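The transcripts described here are the 200 most abundant ones in untreated zebrafish embryos at 48 hours post-fertilization (hpf). They were taken from the 30242 transcripts listed in each of 4 deposited tables (32963 were listed in any), one table for each citalopram concentration against the same controls. All transcripts were ranked by their control mean in the 0.03 μg/L table and the 200 highest were kept, so the members were chosen by their control values and not by their treated values. All 200 were present in both groups of every table. Wild-type whole embryos were left untreated or were exposed until 24 hpf to citalopram at 250, 50, 0.9 or 0.03 μg/L, then washed and kept in drug-free medium until harvest at 48 hpf. Each of the 5 groups had 5 libraries of total RNA, each from 50 pooled embryos, prepared with a kit that depletes ribosomal RNA, and all 25 libraries carry the same batch label. The labels put the start of exposure at 0 hpf and the study's methods slightly later. The treatment field of the labels names opioids, while the titles and the study name citalopram, which is the name used here.

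Citalopram is a selective serotonin reuptake inhibitor: it blocks the transporter that returns serotonin to the neuron that released it. In any whole-embryo library, a few kinds of transcript take up much of the sequencing. In vertebrate embryos these commonly come from the mitochondrial genome, the translation machinery and large differentiated tissues such as muscle, skin, blood and lens. The study's reference also held non-coding transcripts, so a member need not code for a protein. Sequencing reads are a shared budget, so when an abundant transcript takes more of them, a smaller share remains for every other transcript. The gene references at hand paired no Ensembl transcript identifier with a gene symbol, so 0 of the 32963 identifiers could be matched. This is a limit of those references and not a property of the transcripts. No member could therefore be assigned to any of these classes, and the whole-embryo label could not be checked against marker genes. Members are therefore called by their rank, rank 1 being the most abundant. Levels are normalized counts, not counts per length of transcript, so a rank orders transcripts by how much of the sequencing they took and not by the number of RNA molecules.

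The values are the authors' means over the 5 libraries of a group, in normalized counts, that is, counts divided by a size factor for each library. Summed over all listed transcripts, these means came to between 27493493 and 29297114 for the treated groups and between 27603340 and 28333677 for the controls. The levels of single libraries were not analysed here, so no mean below carries an SD and no difference was tested. If the normalized counts are treated as reads, counting error alone gives a member's log2 ratio a standard error of at most 0.0093, against medians of 0.0695 to 0.0709 over all transcripts with both means above 0. This covers counting error only and holds nothing of the spread between libraries. For abundant transcripts that spread is usually larger than the counting error. A difference between 2 group means below may lie within that spread.

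The normalized counts of the control group were concentrated in very few transcripts. The 200 members, 0.627% of the 31882 transcripts in the 0.03 μg/L table, held 43.5% of the summed control mean. Rank 1 alone held 9.36% with a control mean of 2652717 normalized counts, and rank 2 held 5.58% with 1581205. The 5 highest held 19.7%, the 10 highest 22.9% and the 50 highest 33.6%. Of the sum, 25% was reached with 15 transcripts and 50% with 423. Within the 200, levels dropped steeply from rank to rank and then flattened. Rank 1 was 234-fold above rank 200 and 1.68-fold above rank 2. The control mean was 250047 normalized counts at rank 6, 147804 at rank 10 and 11356 at rank 200, and the median member was at 19762, against 163.5 for the median transcript of that table. The limit at rank 200 fell in a smooth part of the curve: the last member before rank 200 had a control mean of 11397 normalized counts, and the first 2 transcripts below the limit had 11346 and 11332. Values from here on are given in order of dose, 0.03 first and 250 last, unless a dose is named.

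**Figure D1:**
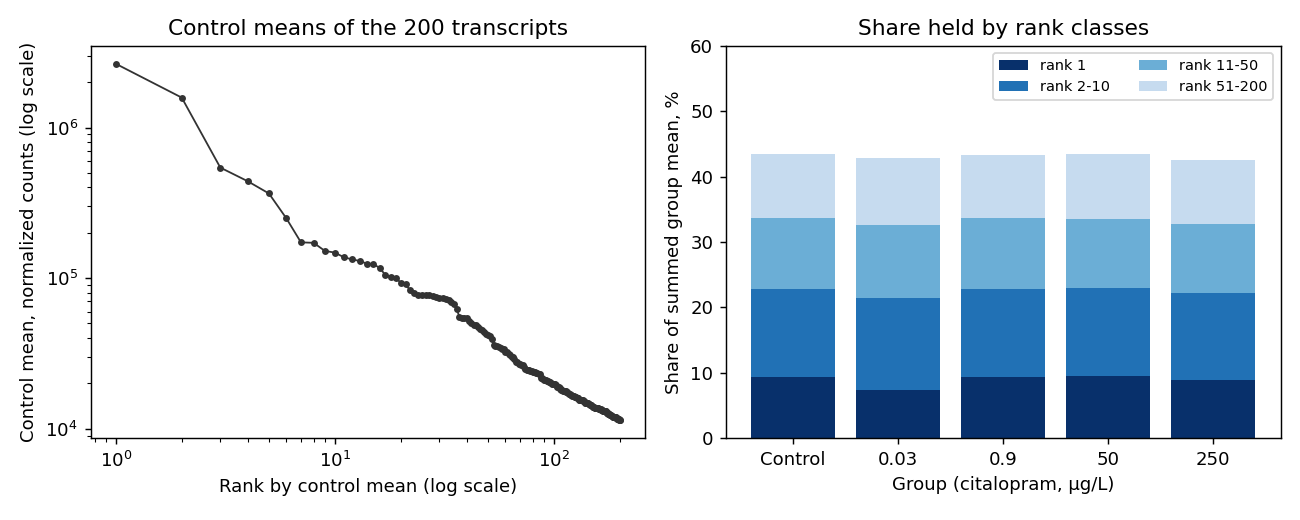
Left, control mean in normalized counts of each of the 200 transcripts against its rank, both axes on a log scale. Right, percent of the summed mean of each group held by rank 1, ranks 2 to 10, 11 to 50 and 51 to 200, with control from the 0.03 μg/L table. The whole column is 43.5% in control and between 42.6% and 43.5% in the treated groups, and the lowest segment, rank 1, is 9.36% in control and 7.37% at 0.03 μg/L.

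The 200 held a similar share of the summed means in all groups. The share was 42.9%, 43.4%, 43.5% and 42.6% in the treated groups and 43.5% in the control of each table. The lower share at 250 μg/L amounted to 0.907 percentage points, and 0.930 points were already missing among the 50 highest. At 0.03 μg/L more was missing among the 50 highest, 1.08 points, while all 200 together were lower by 0.549 points.

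Behind these similar totals, the composition of the 200 differed most at 0.03 μg/L. There, 97 members took a larger share than in control, beside 45.5% of all transcripts, and 103 took a smaller one. The gains came to 3.37 points in sum and the losses to -3.92 points. The sums were smallest for 0.9 μg/L, with 0.527 and -0.632 points. For 50 μg/L they were 1.78 and -1.79 points and cancelled almost fully, and for 250 μg/L they were 1.26 and -2.16 points. Rank 1 made up much of the loss at 0.03 μg/L, where its share was 7.37% against 9.36% in control, while ranks 2 to 200 together held 35.6% against 34.1%. Shares sum to a fixed total, so a lower share of rank 1 raises the others. With rank 1 left out of the sums, ranks 2 to 200 held 38.4% in treated and 37.6% in control embryos. At 250 μg/L the share of ranks 2 to 200 was lower with rank 1 left out as well, 36.98% against 37.64%.

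The 5 most abundant transcripts were the 5 highest in every treated group, in the same order at 0.9 and 250 μg/L. Rank 10 left the 10 highest at 0.03, 50 and 250 μg/L, where it stood at ranks 17, 13 and 13 of the treated means. For a comparison across groups, the treated means were divided by 0.976, 0.995 and 0.974 at 0.9, 50 and 250 μg/L, the median ratios of the shared control means to those of the 0.03 μg/L table. The control values of the members then agreed between tables to within 0.0071 on the log2 scale, as they must if the same libraries were used. All group means that follow are on this common scale, and each log2 ratio is the treated over the control mean within one table as deposited. The 4 ratios of a transcript share their control libraries and are not independent of each other.

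Rank 1 had means of 2652717 normalized counts in control, 2159272 at 0.03, 2654411 at 0.9, 2778580 at 50 and 2501491 at 250 μg/L. Only the group at 0.03 μg/L stood well below control, with a log2 ratio of -0.30, and the other 3 lay between -0.08 and 0.07. Rank 2 varied less, with 1581205 in control, 1697920, 1553413, 1642480 and 1596287 in order of dose, and log2 ratios from -0.03 to 0.10. Rank 3 was below control at each dose, with log2 ratios of -0.16, -0.04, -0.21 and -0.17 in order of dose. Rank 5 was above control at each dose, with 0.16, 0.11, 0.20 and 0.17. Rank 4 lay on both sides of control, with -0.13, 0.06, 0.22 and 0.02.

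The next 5 reached larger differences at 0.03, 50 and 250 μg/L, though not at 0.9 μg/L, and different ones. The means of rank 6 were 250047 normalized counts in control, 242040 at 0.03, 238266 at 0.9, 184612 at 50 and 190088 at 250 μg/L. Its means at the 2 higher doses lay below the other 3 groups (log2 ratios -0.44 and -0.40), and those at the lower doses were close to control (-0.05 and -0.07). ENSDART00000122203.3, rank 7, had 172888 in control and 350402, 172765, 180473 and 190264 in order of dose. Its mean at 0.03 μg/L was 2.03-fold that of control (log2 ratio 1.02) and its log2 ratios at the other doses were between -0.0012 and 0.14. Rank 8 was also highest at 0.03 μg/L, with a log2 ratio of 0.58, and lay at -0.03, -0.16 and -0.18 at the higher doses. Rank 9 had log2 ratios of 0.31, 0.02, 0.27 and 0.19. ENSDART00000093606.3, rank 10, was lowest at 0.03 μg/L, with means of 147804 in control and 106855, 145789, 139691 and 132428 in order of dose, and log2 ratios of -0.47, -0.02, -0.08 and -0.16.

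Over all 200, the middle of the distribution stayed close to control at every dose. The median log2 ratio of the members was 0.023, -0.0032, 0.051 and -0.0031. Over all transcripts with both means above 0 the medians were 0.0095, -0.00032, 0.016 and 0.0060. At 50 μg/L, 127 of the 200 were above control, beside 53.2% of all transcripts, but as shares of the group sum 106 were (45.7% of all). At that dose the median of the next 200 transcripts (up to rank 400) was 0.054. What differed between doses was the width of the distribution. The quartiles of the members were -0.13 and 0.25 for 0.03 μg/L, -0.05 and 0.03 for 0.9 μg/L, -0.07 and 0.14 for 50 μg/L, and -0.10 and 0.10 for 250 μg/L. The distribution over all transcripts was also widest at 0.03 μg/L and narrowest at 0.9 μg/L. Its quartiles in order of dose were -0.21 and 0.26, -0.09 and 0.09, -0.13 and 0.15, and -0.11 and 0.13.

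**Figure D2:**
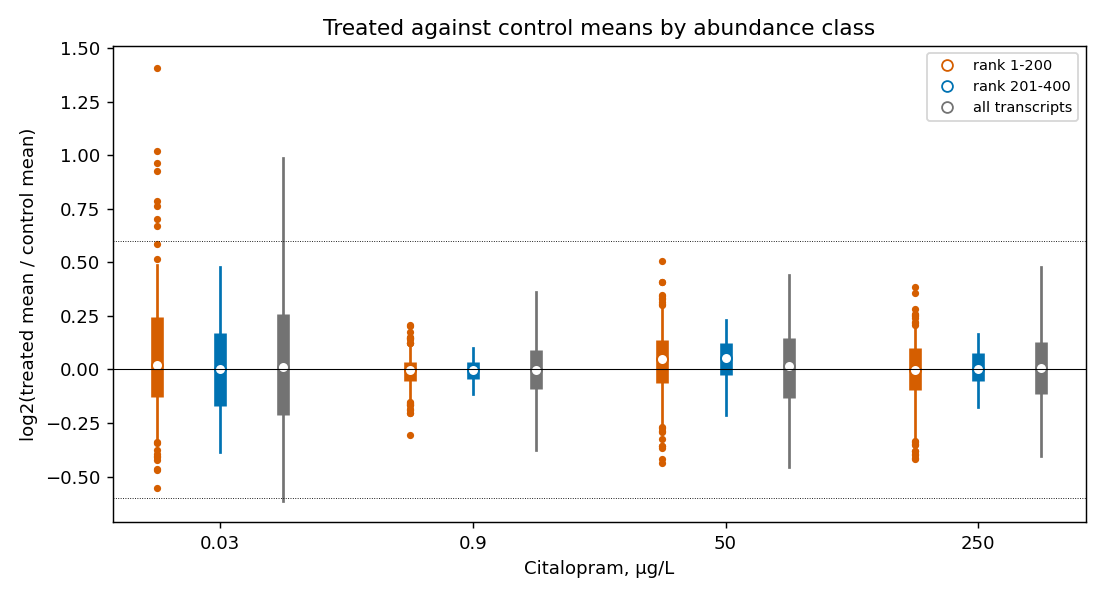
Log2 ratio of treated to control mean at each citalopram concentration for the 200 transcripts, for the next 200 (up to rank 400) and for all transcripts with both means above 0. Circles are medians, thick bars span the quartiles, thin bars the 5th to 95th percentile, and orange points are members outside that range. Dotted lines mark log2 ratios of 0.6 and -0.6, and of the orange points only some at 0.03 μg/L lie past 0.6, and none at any dose past -0.6.

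The study's methods called transcripts past an absolute log2 ratio of 0.6 that also met an adjusted p-value limit, which was not applied here. The counts below are therefore not the study's calls. Past an absolute log2 ratio of 0.6 alone lay 8 members at 0.03 μg/L, all of them higher than control. This is 8 of 200, while 15.6% of all transcripts were past it in either direction (10.3% higher and 5.23% lower). At each of the other doses 0 members were past it. Of all transcripts, 4.31% were past it at 0.9 μg/L (2.09% higher and 2.22% lower). The share was 5.37% at 50 μg/L (2.65% higher and 2.72% lower) and 5.78% at 250 μg/L (3.41% higher and 2.38% lower). Nothing about the members is read from these shares, since the choice of members used the same control means. The next 200 transcripts had 6 at 0.03 μg/L, all higher, and 0 at the other doses. Past an absolute log2 ratio of 0.3 at 0.03 μg/L lay 39 members higher and 14 lower, beside 40.5% of all transcripts (22.5% higher and 18.0% lower). At 0.9 μg/L 0 members were higher and 1 lower, beside 13.6% of all (6.69% and 6.89%). The counts were 10 higher and 6 lower at 50 μg/L, beside 21.0% of all (10.1% and 10.9%). They were 2 higher and 12 lower at 250 μg/L, beside 18.2% of all (9.88% and 8.35%).

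The 8 members past 0.6 at 0.03 μg/L were spread over the list, at ranks 7, 12, 37, 51, 59, 75, 184 and 187. The largest ratio was that of rank 59, with means of 33902 normalized counts in control, 89985 at 0.03, 31931 at 0.9, 33621 at 50 and 31458 at 250 μg/L. It was 2.65-fold above control at 0.03 μg/L (log2 ratio 1.41) and below control in the other groups (-0.09, -0.02 and -0.11). ENSDART00000170044.2, rank 12, had 133255 in control and 216948, 139533, 151141 and 153075 in order of dose. Its log2 ratio was 0.70 at 0.03 μg/L and between 0.07 and 0.20 elsewhere. Rank 37 had 55290 in control and 107709, 63753, 63991 and 72218 in order of dose. Of all members it had the highest ratio for 0.9 μg/L (0.21) and for 250 μg/L (0.39), and for 0.03 μg/L its ratio was 0.96. For 6 of the 8 the group at 0.03 μg/L stood apart from 4 groups that lay closer together, while ranks 37 and 75 were also higher at 250 μg/L, rank 75 with log2 ratios of 0.67, 0.0003, 0.25 and 0.36. Ranks 51, 184 and 187 had log2 ratios of 0.78, 0.93 and 0.76 at 0.03 μg/L and between -0.14 and 0.17 at the other doses.

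On the lower side, no member was past -0.6 at any dose. The lowest ratio was that of ENSDART00000173453.2, rank 41, with means of 51645 normalized counts in control, 35226 at 0.03, 44804 at 0.9, 42741 at 50 and 39676 at 250 μg/L. All 4 treated means of rank 41 were below its control mean, with log2 ratios of -0.55, -0.20, -0.27 and -0.38. Rank 127 was at -0.46 at 0.03 μg/L and between -0.13 and -0.02 at the other doses. Rank 60 had 32483 in control and 27413, 26307, 25401 and 24346 in order of dose, the lowest ratio of all members at 0.9 μg/L (-0.30) and at 250 μg/L (-0.42). Rank 43 was also below control in all 4 tables, with -0.26, -0.20, -0.29 and -0.35. The 4 ratios of a transcript share 1 control mean, so being below control at 4 doses is not 4 separate observations.

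**Figure D3:**
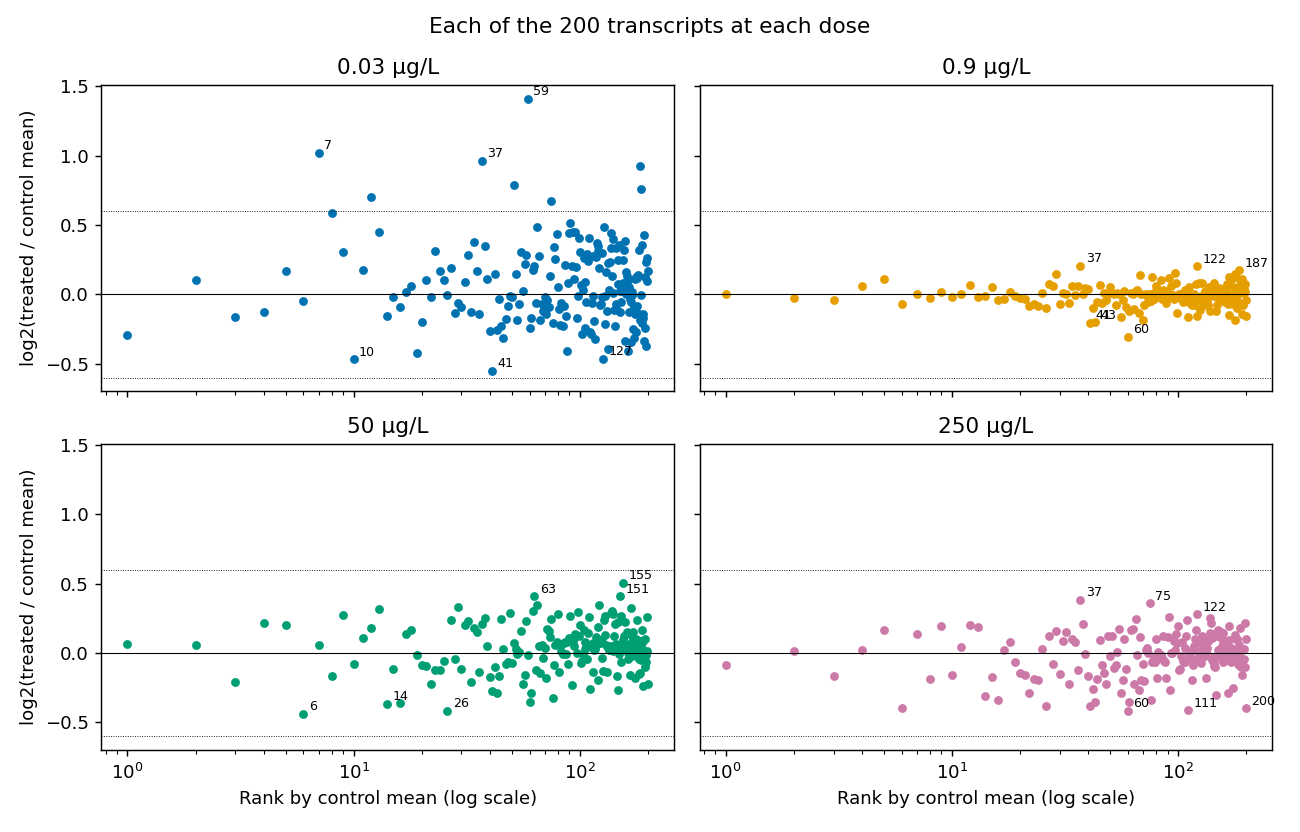
Log2 ratio of treated to control mean of each of the 200 transcripts, plotted against its rank by control mean (log scale), with one panel for each citalopram concentration. Dotted lines mark 0.6 and -0.6, and the 3 highest and 3 lowest transcripts of each panel carry their rank. In order of dose, the points spread from -0.55 to 1.41, from -0.30 to 0.21, from -0.44 to 0.50 and from -0.42 to 0.39.

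For 50 and 250 μg/L the typical ratio was larger among the 50 most abundant transcripts than in the rest of the list. Their median absolute log2 ratio was 0.165 and 0.157 at these doses. It was 0.087 and 0.084 for ranks 51 to 200, and 0.089 and 0.058 for the next 200 transcripts. Over all transcripts with both means above 0 it was 0.140 and 0.120, nearer to the values of the 50 most abundant. The median absolute log2 ratio at 0.03 μg/L was 0.164 for ranks 1 to 50 and 0.193 for ranks 51 to 200, and for 0.9 μg/L it was 0.045 and 0.043. The ranks were set by the control mean that is also the denominator of each ratio, so these values are a description only. Counting error is smallest for the most abundant transcripts, and the spread between libraries was not analysed here. Whether 1 or a few libraries carried these differences was not tested.

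Treated groups were also set against each other. A member's own control mean is not part of these comparisons, but the common scale was set from the control means. For rank 6 the means at 50 and 250 μg/L were both below those at 0.03 and 0.9 μg/L, with a gap of 0.33 on the log2 scale between the nearest of them. This was so for 40 of the 200, or 20.0%, against 14.0% of the 30140 transcripts with all 4 treated means above 0, and for 16 of the 50 highest. Rank 6, from which the order is described, is itself counted, so these counts are a description only. The opposite order, with both higher doses above both lower ones, was found for 26 members, or 13.0%, against 16.6% of all. In the next 200 transcripts the balance was reversed, with 19 (9.5%) in the first order and 41 (20.5%) in the opposite one. The counts also depended on the scaling. With means as deposited, 37 and 21 members had these orders (4188 and 4696 of all). With means divided by the sum of their group, 40 and 32 did (4027 and 5072 of all). A gap of more than 0.2 was rare in either direction. With the higher doses below it was present in 4 members, at ranks 6, 16, 26 and 92. This is 2.0% of the members, about the same as the 2.06% of all transcripts. With the higher doses above it was present in 1 member (0.5%, beside 1.95% of all transcripts). Rank 16 had means of 109762 normalized counts at 0.03, 113356 at 0.9, 91237 at 50 and 92326 at 250 μg/L, and 116822 in control. Rank 26 had 77014, 72261, 57919 and 59313 in order of dose and 77267 in control. Rank 14 came close, with 112021, 123872, 96947 and 100516 in order of dose and 124843 in control. In these 3 members, as in rank 6, the means at the 2 higher doses lay near each other and below those of the other 3 groups. Ranks 16 and 92 were picked after their values had been seen.

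**Figure D4:**
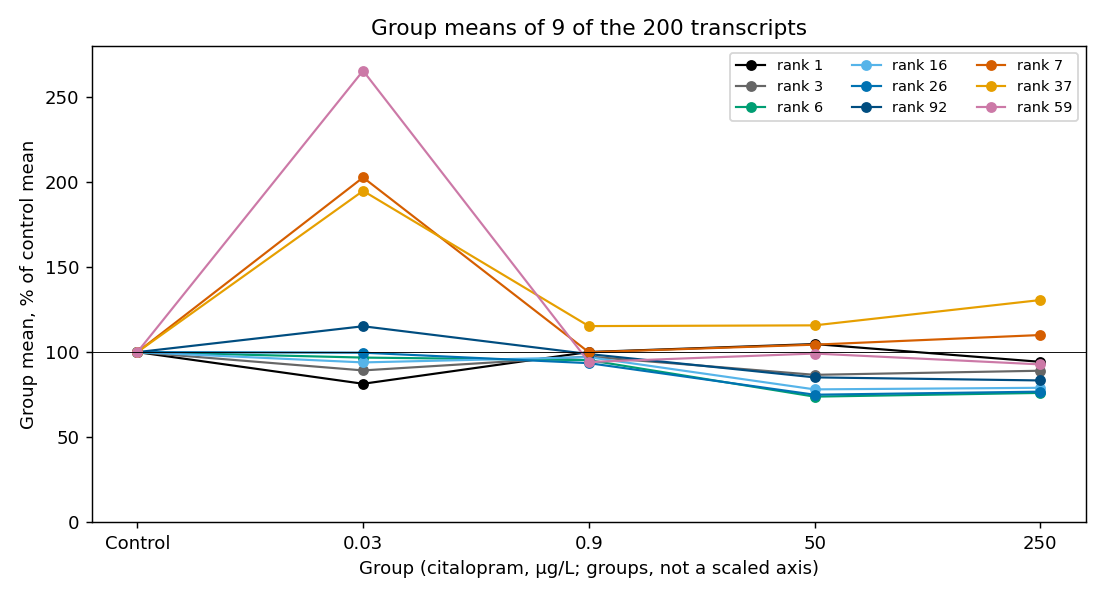
Group means of 9 of the 200 transcripts as percent of the control mean, for control and the 4 citalopram concentrations. The groups are evenly spaced, and lines only join the points of one transcript. Ranks 7, 37 and 59 peak at 0.03 μg/L, at 2.03-fold, 1.95-fold and 2.65-fold of control, rank 1 is lowest there, and ranks 6, 16, 26 and 92 lie lowest at 50 and 250 μg/L.

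The members with the highest ratios at 50 μg/L had another order. Rank 155 had means of 13720 normalized counts in control, 14509 at 0.03, 14022 at 0.9, 19494 at 50 and 15292 at 250 μg/L. Its mean at 50 μg/L was 1.42-fold that of control and stood above the other 4 groups, which lay near each other. Ranks 63 and 151 were also highest at 50 μg/L, both with a log2 ratio of 0.41, and were at 0.17 at 250 μg/L. Rank 122 was above control in every table, with log2 ratios of 0.19, 0.20, 0.34 and 0.28 in order of dose. Ranks 111 and 200 had their lowest means at 250 μg/L, with log2 ratios of -0.41 and -0.40, and rank 200 in control stood at rank 288 of the treated means at that dose.

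Among the 4 treated groups, the one at 0.03 μg/L was most often the highest. It was highest for 94 of the 200 members (47.0%), against 38.0% of all transcripts, and lowest for 62 (31.0%), against 37.04%. The group at 250 μg/L was highest for 5 members (2.5%), against 13.3% of all, and lowest for 48 (24.0%), against 14.5%. Of the next 200 transcripts, 43.0% were highest and 39.5% lowest at 0.03 μg/L, and 6.0% were highest and 17.5% lowest at 250 μg/L. With the treated means as deposited, 0 members were highest in the group at 250 μg/L (10.1% of all) and 55 lowest (18.0% of all). With means divided by the sum of their group, 11 were highest (19.4% of all) and 32 lowest (10.4% of all). The ratio of the highest to the lowest treated mean of a member had a median of 0.28 on the log2 scale and quartiles of 0.17 and 0.38. This range was 0.25 for the next 200 transcripts and 0.34 for all transcripts.

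Between pairs of treated groups, the 3 pairs that include 0.03 μg/L had the widest differences in these transcripts, as they had over all transcripts. The members' median absolute log2 ratio was 0.192 for 0.03 over 0.9 μg/L, 0.168 for 0.03 over 50 μg/L and 0.167 for 0.03 over 250 μg/L. In the same order it was 0.176, 0.172 and 0.151 for the next 200 transcripts and 0.227, 0.236 and 0.194 over all transcripts. Past an absolute 0.6 lay 8, 7 and 6 members in these pairs, all higher at 0.03 μg/L, beside 13.3%, 13.9% and 10.1% of all transcripts. Over all transcripts, more were also higher than lower at 0.03 μg/L in each pair: 2569 and 1452, 2615 and 1583, and 1969 and 1069. Past 0.3 lay 37 members higher and 16 lower, 27 and 30, and 30 and 7, beside 38.6%, 40.1% and 32.3% of all. Over all transcripts these were 6325 and 5307, 6357 and 5722, and 5283 and 4447. Of the next 200 transcripts they were 27 and 27, 16 and 32, and 23 and 17. The other 3 pairs were closer, with median absolute log2 ratios of 0.104 for 0.9 over 50 μg/L, 0.094 for 0.9 over 250 μg/L and 0.067 for 50 over 250 μg/L. In each of them 0 members were past 0.6, beside 4.14%, 4.03% and 3.99% of all transcripts. Past 0.3 lay 12, 3 and 1 members, beside 16.7%, 14.6% and 14.3% of all. This is 6.0%, 1.5% and 0.5% of the members, against 2.5%, 0.5% and 0.5% of the next 200 transcripts. The smallest of the members' 6 medians was that of 50 over 250 μg/L. In that pair 153 of the 200 had the higher mean at 50 μg/L, beside 133 of the next 200 and 51.4% of all transcripts. The members' count depended on the scaling: it was 167 with means as deposited (59.0% of all) and 118 with means divided by the sum of their group (40.0% of all). These pairs share treated groups with each other, and no difference between them was tested.

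Most of the 200 were also among the 200 highest of each treated group. This held for 181, 193, 188 and 189 members. At the 3 higher doses every transcript that entered the treated 200 had a control rank of at most 250, just below the limit. At 0.03 μg/L, 11 of the 19 entrants did so and 8 came from further down. The largest move was from rank 2001 in control to rank 107 in treated embryos, with a control mean of 1936 and a treated mean of 20492 normalized counts at 0.03 μg/L. Another went from rank 698 to rank 116, with 4303 and 19726 normalized counts. These entrants are not members. They were picked for their high treated means, and their ratios (log2 3.40 and 2.20) are given as a description only.

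The identifiers held one further regularity, noted after the values had been seen. A run of 30 consecutive Ensembl transcript numbers contained 13 transcripts listed in all 4 tables, and 11 of the 13 were members, at ranks 10, 19, 20, 25, 28, 36, 40, 44, 47, 68 and 182. ENSDART00000093606.3 was the most abundant of them. No gene name could be attached to them here. Together the 11 held 2.63% of the summed control mean, and 2.20%, 2.65%, 2.43% and 2.46% of the treated sums in order of dose. At 0.03 μg/L 9 of the 11 were below control, beside 15384 of 31512 over all transcripts. The 11 had a median log2 ratio of -0.14 and a range from -0.47 to 0.32. The 2 above control at that dose were ranks 25 and 182, with 0.10 and 0.32. At 0.9 μg/L the 11 lay within -0.05 and 0.14 (median 0.01). Their medians were -0.08 at 50 μg/L, where 10 were below control, and -0.12 at 250 μg/L, where 8 were. Over all transcripts, 14517 of 31033 were below control at 50 μg/L and 15192 of 31336 at 250 μg/L. The 11 were measured in the same libraries and are not separate observations. Fewer cells of a type and less RNA per cell cannot be told apart in these bulk samples, for these or for any other members.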

How the data were processed

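Before deposit, the authors corrected and trimmed the reads (rCorrector, Trimmomatic), estimated transcript abundance by Salmon with the Ensembl GRCz11 coding and non-coding transcripts as reference, and compared each dose with control in DESeq2, run from Trinity. What decided whether a transcript is listed was not stated in the sources read. Used here as a non-negative signal were the deposited group means, that is, counts divided by size factors and averaged over 5 libraries by the authors. The tables also hold the authors' fold changes, standard errors, statistics and p-values, which were not used. The members, lists and comparisons were chosen with earlier results of these data known.

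Transcripts were ranked by control mean, with 200 kept. Log2 ratios had no pseudocount. Backgrounds took transcripts with both means above 0. No test was possible from 1 mean per group. Named transcripts were the 10 highest, the 3 highest and 3 lowest ratios per dose and those at the limit. Ranks 51 and 184 (past 0.6), ranks 16 and 92 (the 0.2 gap) and the run of identifiers were named after their values were seen. Printed are 4 identifiers, the first 2 in rank order past 0.6 (ranks 7 and 12) and the 2 lowest. Gene lists and cell type markers fixed by symbol were not used, since the gene references at hand paired 0 identifiers with a symbol. Computation was tested on simulated tables. Python 3.11.15, numpy 2.4.6, pandas 2.3.3, scipy 1.17.1 and matplotlib 3.10.9 were used.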

Additional observations from a re-analysis of the deposited data

How the results depend on the processing

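With the sum taken over transcripts listed in all 4 tables, the 200 held 43.5% of the control mean and 43.1%, 43.4%, 43.5% and 42.6% of the treated means in order of dose. Ranking by the control means of the other tables gave the same 200 transcripts. As a ratio of shares, the median log2 ratio was -0.021 at 0.03 μg/L, which turns its sign, and 0.015 at 50 μg/L, and centred on all transcripts it was 0.035 at 50 μg/L. Ranking by treated means shared 192 of the 200 and moved the median to 0.054 at 0.03 μg/L. It put 11 transcripts past 0.6 there, beside 15.6% of all transcripts. That ranking picks transcripts by high treated means, so its values are a description only. The 100 highest by control mean had a median of -0.028 at 250 μg/L. Past 0.3 lay 53, 1, 16 and 14 members in order of dose, beside 40.5%, 13.6%, 21.0% and 18.2% of all transcripts. This is 26.5%, 0.5%, 8.0% and 7.0% of the members, against 24.0%, 0.0%, 5.0% and 4.0% of the next 200 transcripts. Past 1 lay 2 members at 0.03 μg/L. How many of all transcripts lay past 1 was not counted, so nothing is read from these 2. The median range of the treated means was 0.30 as deposited and 0.25 with means divided by group sums. Medians this close to 0 give no direction. No paired analysis was possible because the tables hold 1 mean per group, and for the same reason no replicate could be left out. The spread between libraries therefore limits every difference above.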
